A study of Mus musculus with 8 samples.

Results

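Blood vessel genes were followed in cells digested from the rib cages of mouse embryos, with 33 genes that mark vessel cells taken from the 18193 genes that the arrays named. Of these, 20 are genes of endothelium, the cell layer that lines vessels, and 13 are genes of mural cells, the smooth muscle cells and pericytes wrapped around it. They were listed by symbol as known markers. Each gene was read from the probe set assigned to its symbol alone, and where several were, from the one with the highest mean signal over the 8 arrays. All 33 were on the array. The groups were FVB embryos at E18.5, shortly before birth, either wild type or carrying a Hoxd4 transgene, and every embryo's rib cage went through the same digestion. Embryos of 4 litters were grouped by genotype, which gave 1 control and 1 transgenic sample per litter and 4 arrays per genotype. For the promoter of the transgene, the sex of the embryos and the number of embryos per sample the sources used here give nothing. The study asks how a gain of Hoxd4, a Hox gene active along the body axis, alters transcripts of rib chondrocytes. The vessel genes were taken as a gauge of how much vessel tissue each digest carried beside the cartilage cells. Other cells make some of them too, and how well they gauge it was not tested.

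Cartilage is built without blood vessels of its own. Vessels run in the fibrous perichondrium around each rib, in the muscle between ribs, and in the bone that replaces cartilage, and a collagenase digest of a whole rib cage can free cells from all of these. Endothelial cells respond to vascular endothelial growth factors through the receptors Kdr, Flt1 and Flt4 and are stabilised through Tek and Tie1, while the platelet-derived growth factor receptor Pdgfrb draws mural cells to the vessel.

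The defining genes of cartilage were bright on every array. Col2a1, the main collagen of cartilage, had signals between 36480 and 50824, and the summed signal of 8 chondrocyte genes lay between 194933 and 217213 in controls and between 201046 and 223043 in transgenics. Signals are MAS5 values on a linear scale with no unit, set so that each array has a trimmed mean of 500. They depend on how well a probe set binds its transcript and can be compared between arrays for a gene but not between genes. A pair of arrays need a remark before the results. Xist, the RNA of the inactive X chromosome, had signals of 79.8 and 47.2 in the transgenic arrays of litters 1 and 3, against 3266 and 8209 in those of litters 2 and 4 and 5778 to 13760 in the controls. Eif2s3y, a Y-linked gene, lay between 813 and 1178 in transgenics and between 358 and 772 in controls. These sex-linked levels moved with the genotype label beside every comparison below, and their part in it was not tested beyond the fit that holds Xist level as a covariate. The probe sets for Hoxd4 are shared with Hoxd3. The brighter one had signals of 27.3, 42.6, 4.10 and 256 in controls of litters 1 to 4 and of 94.1, 415, 172 and 13.0 in transgenics, so it was dimmer in the transgenic array of litter 4, and each direction below rests on the labels.

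Of the 20 endothelial genes 18 had a mean signal above the median of all probe sets and were tested, and of the 13 mural genes 10 were. The genes too dim for the test were Tie1, Vwf, Cnn1, Lmod1 and Synpo2. Differences between genotypes were fitted with limma on log2 of the signal plus a constant of 31.5, which shrinks the differences of dim genes. They are given as transgenic minus control.

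**Figure D1:**
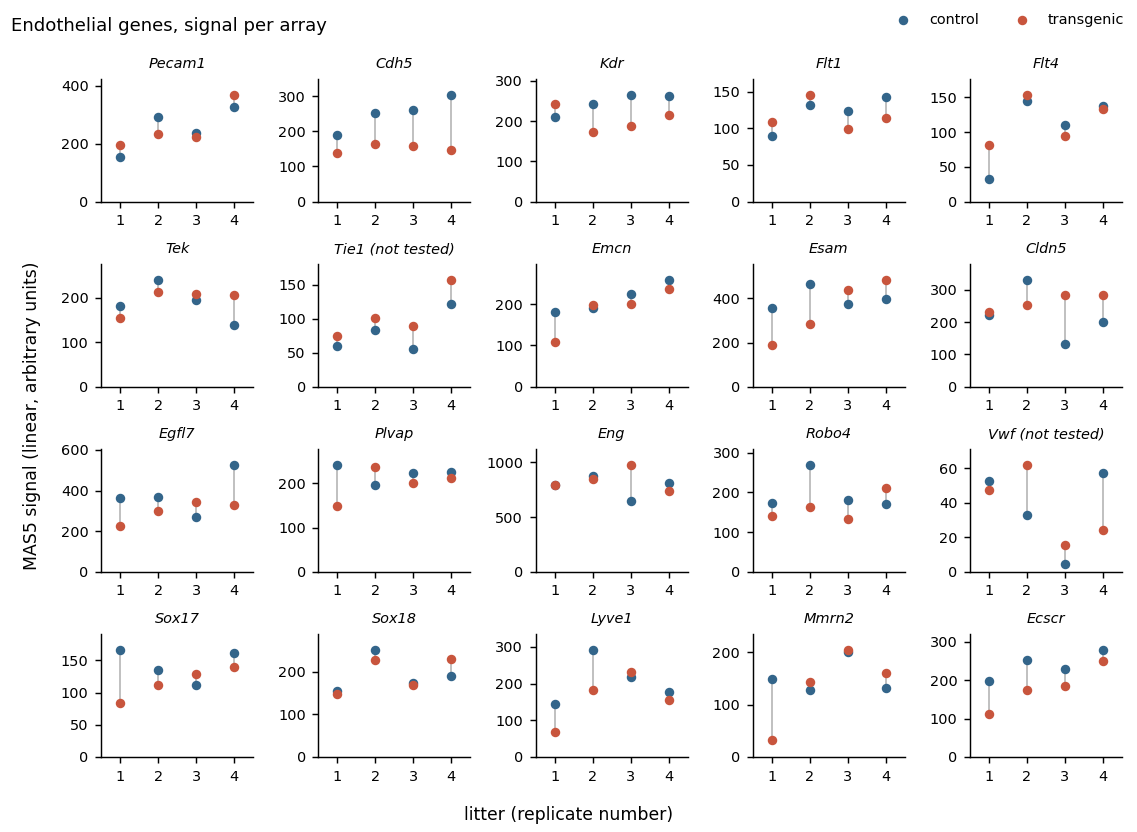
MAS5 signal (linear scale, each panel from 0) of the 20 endothelial genes in every array, by litter, with the control array in blue and the transgenic array in red and a line joining the arrays of a litter. In the Cdh5 panel all 4 transgenic points, 140 to 165, lie below all 4 control points, 189 to 304, and in many panels the transgenic point of litter 1 is the lowest.

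No vessel gene differed between the genotypes beyond the adjusted threshold. At an adjusted p under 0.05 in limma, 0 of the 28 tested vessel genes and 0 of all 22518 tested probe sets (0%) were called, with or without the litter as a block. At an unadjusted p under 0.05 there was 1 vessel gene, Cdh5, beside 740 of all tested probe sets (3.29%). With the litter as a block there were 2, Cdh5 and Ecscr, beside 1248 probe sets (5.54%). Both were lower in transgenics, as were 385 probe sets (1.71%) without the block and 640 (2.84%) with it. Scaling arrays by their median changed the split at an unadjusted p under 0.05 from 355 higher and 385 lower to 481 higher and 235 lower. The share of the 28 is close to the background.

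Among the junction proteins that hold endothelial cells together, Cdh5, the vascular cadherin, stood lowest relative to control. Its signals were 189, 252, 261 and 304 in the controls of litters 1 to 4 and 140, 165, 159 and 147 in the transgenics. Every transgenic array was below every control array, a pattern shared by 245 of all tested probe sets (1.09%). The means were 251 ± 47.3 (SD, n = 4) and 153 ± 11.2 (SD, n = 4), giving a log2 fold change of -0.61 (95% interval -0.94 to -0.27) at an unadjusted p of 0.0018 and adjusted p of 0.9997 in limma. With the litter as a block these p values were 0.0020 and 0.70. The exact two-sided permutation p was 0.029 over all 70 assignments of arrays and 0.125 when labels were exchanged only within litters, each the smallest possible. Cdh5 was already known as one of the larger differences in these arrays, so its value is no independent support. A second, dim probe set of Cdh5, with a mean signal of 49.1, had a log2 fold change of 0.17, and the mean of both was -0.22.

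The other junction genes did not share this pattern. Pecam1, an adhesion molecule of endothelial contacts, had signals of 154, 291, 237 and 327 in controls and 195, 233, 222 and 368 in transgenics. Litter 1 was low and litter 4 high in both genotypes, and its log2 fold change was 0.02 (95% interval -0.45 to 0.48). Esam, a junctional immunoglobulin protein, had signals of 355, 466, 376 and 397 in controls and 188, 284, 440 and 483 in transgenics. The transgenic arrays of litters 1 and 2 were its lowest and those of litters 3 and 4 lay among or above the controls, with a log2 fold change of -0.25 (95% interval -0.72 to 0.22). Cldn5, the claudin of endothelial tight junctions, had signals of 222, 330, 131 and 199 in controls and 232, 254, 284 and 285 in transgenics. The groups overlapped, and its log2 fold change of 0.28 (95% interval -0.15 to 0.72) had the opposite sign to that of Cdh5.

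The receptors were close to control or had wide intervals. Kdr, the main signalling receptor for vascular endothelial growth factor, had signals of 211, 243, 265 and 261 in controls and 243, 172, 188 and 216 in transgenics. It was lower in the transgenic array of litters 2, 3 and 4 and higher in litter 1, the reverse of most endothelial genes there, with a log2 fold change of -0.23 (95% interval -0.54 to 0.08). Flt1, a receptor that also traps this growth factor, was at -0.04 (signals 88.8 to 145) and Flt4, the receptor of lymphatic growth factors, at 0.17 (signals 32.0 to 153). Tek, the angiopoietin receptor, had signals of 183, 240.1, 194 and 139 in controls and 155, 214, 210 and 207 in transgenics. The control arrays enclosed all transgenic ones, and its log2 fold change was 0.06 (95% interval -0.31 to 0.43). Its partner Tie1 had signals of 55.7 to 122 in controls and 74.9 to 157 in transgenics, too dim for the test, and was higher in the transgenic array of all 4 litters (log2 fold change 0.30, 95% interval -0.27 to 0.87 in the fit with no filter). In that fit none of the 5 dim genes had an unadjusted p under 0.05 in limma, against 1838 of all 45037 probe sets (4.08%), and none an adjusted one. Of all tested probe sets 6.83% were higher in all 4 litters and 6.6% were lower in all 4. Eng, a coreceptor for transforming growth factor beta, had signals of 649.9 to 975 and a log2 fold change of 0.09. Robo4, an endothelial guidance receptor, had signals of 173, 268, 179.7 and 169 in controls and 141, 164, 132 and 212 in transgenics, with overlap. It was lower in 3 litters, at -0.24 on the log2 scale (95% interval -0.63 to 0.15).

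Of the genes for surface, secreted and matrix proteins, none passed the adjusted test, and several had their lowest signal in the transgenic array of litter 1. Ecscr, a surface protein of endothelial cells, had signals of 196, 252, 229.7 and 277 in controls and 112, 174, 186 and 250.1 in transgenics. It was lower in the transgenic array of every litter although the groups overlapped, at -0.38 on the log2 scale (95% interval -0.80 to 0.03). Its unadjusted p was 0.069 and, with the litter as a block, 0.027 (limma adjusted p 0.86). Lyve1, the hyaluronan receptor of lymphatic vessels, which some macrophages also make, had signals of 146, 291, 218 and 178 in controls and 69.0, 183, 231 and 156 in transgenics. The transgenic array of litter 1 was the lowest and the control array of litter 2 the highest (log2 fold change -0.37, 95% interval -0.95 to 0.21), and the second probe set gave -0.33. Egfl7, a secreted factor that guides vessel tube formation, had signals of 366, 367, 271 and 525 in controls and 225, 300.5, 343 and 329 in transgenics. It was lower in 3 litters and higher in litter 3, at -0.30 on the log2 scale (95% interval -0.69 to 0.08). Its 3 other probe sets gave -0.22, -0.17 and -0.06. Mmrn2, a matrix protein of the vessel wall, was at -0.28, its transgenic signal of litter 1 being 31.6 against 127 to 204 in all other arrays. Its tested lesser probe sets gave 0.07 and -0.08. Emcn, a sialomucin of veins and capillaries, was at -0.20 and Plvap, a protein of endothelial pores, at -0.15. Both had their lowest signal in the transgenic array of litter 1, 107 and 148. Vwf, the clotting factor stored in endothelium, had signals of 4.27 to 61.9 and was too dim for the test.

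Of the endothelial transcription factors, Sox17 had signals of 166, 135, 111 and 162 in controls and 84.2, 112, 129 and 139 in transgenics. Its groups overlapped, its log2 fold change was -0.25 (95% interval -0.66 to 0.16), and its other probe set gave 0.07. Sox18, which acts beside it in vessel development, had signals of 147 to 249.8 and a log2 fold change of 0.01.

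Promoter windows were read for only some members, to see which letters the endothelial and mural genes share beyond their membership. The windows, based on RefSeq's mouse table (GRCm38.p6), run from 250 bases before to 50 after each start site. The set used held none for several members, such as Cdh5, Pecam1 and Tagln, and any member windows on 1 chromosome were left out. ETS factors are central to endothelial gene control and bind a GGAA core, searched here as AGGAAG on either strand. It occurred in 7 of 12 windows of the 10 endothelial genes matched (6 of the genes), in 0 of 10 windows of the 10 mural genes and in 35.4% of all 32851 windows. The extended ETS form CGGAAG was in 1 endothelial and no mural window, against 16.9% of windows. The CArG box of smooth muscle genes, in its strict form, was in no window of either group and in 1.63% of all. TATAAA was in 1 endothelial and 1 mural window, against 13.6%. A match only describes letters, and a missing match says only that they are not in that window. The 120 bases before the start site are shown for the 5 endothelial genes with AGGAAG within them, 5′ to 3′ along the gene, with the match, or its reverse complement, in capitals (for Egfl7 the first of its 3 windows).
Robo4, chr9:37401852-37401971, plus strand: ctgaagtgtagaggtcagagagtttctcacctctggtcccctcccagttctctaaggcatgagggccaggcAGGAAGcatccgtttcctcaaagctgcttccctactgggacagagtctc
Eng, chr2:32646475-32646594, plus strand: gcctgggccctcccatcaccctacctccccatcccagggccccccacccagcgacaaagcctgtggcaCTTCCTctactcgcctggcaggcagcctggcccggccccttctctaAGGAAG
Emcn, chr3:137340958-137341077, plus strand: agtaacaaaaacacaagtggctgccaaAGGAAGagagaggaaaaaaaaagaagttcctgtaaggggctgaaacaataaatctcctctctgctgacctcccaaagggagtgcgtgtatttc
Flt1, chr5:147726012-147726131, minus strand: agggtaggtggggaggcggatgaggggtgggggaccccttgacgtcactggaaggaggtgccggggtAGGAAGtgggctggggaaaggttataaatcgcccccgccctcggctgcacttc
Egfl7, chr2:26580963-26581082, plus strand: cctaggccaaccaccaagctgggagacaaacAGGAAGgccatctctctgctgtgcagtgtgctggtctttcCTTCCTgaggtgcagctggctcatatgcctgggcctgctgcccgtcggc
The first base of the match lies 49 bases before the start site in Robo4, 52 and 6 in Eng, 93 in Emcn, 53 in Flt1 and 89 and 49 in Egfl7. Of these 5 genes, Robo4, Emcn, Flt1 and Egfl7 had a log2 fold change below 0 and Eng one above it. Tie1, whose matches lie outside such a stretch, was at 0.30. Of all 20 endothelial genes 12 were lower, so the directions of these genes say nothing about the motif.

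**Figure D2:**
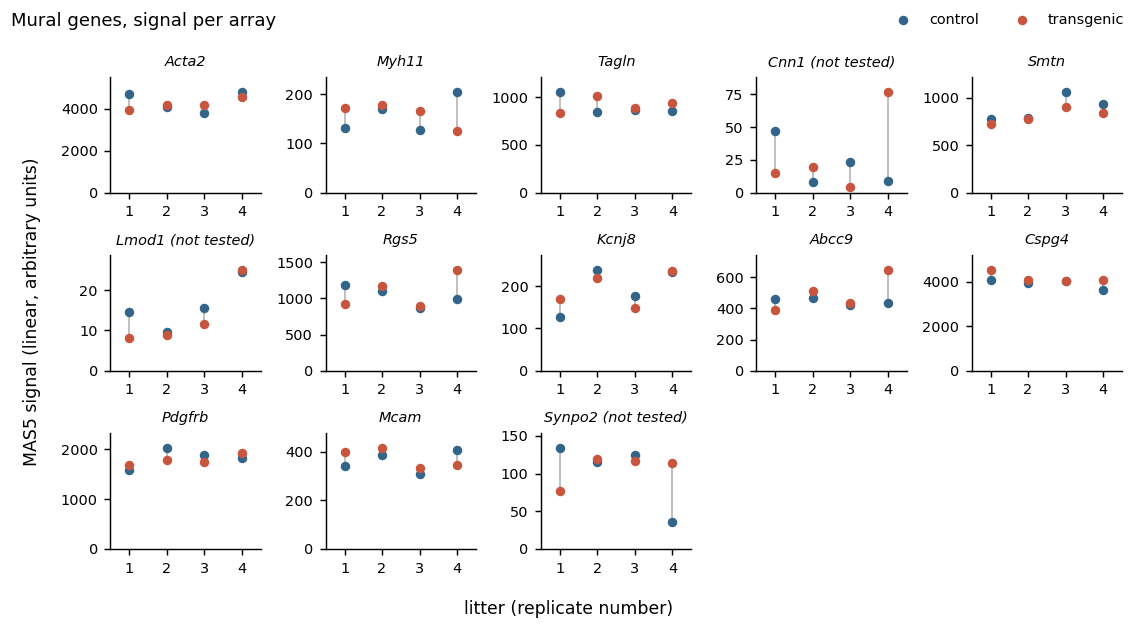
MAS5 signal (linear scale, each panel from 0) of the 13 mural genes in every array, by litter, with the control array in blue, the transgenic array in red and a line joining the arrays of a litter. Acta2, Tagln, Smtn, Cspg4 and Pdgfrb vary little between arrays, whereas Cnn1 and Lmod1 stay at 4.59 to 76.9.

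Mural genes showed small differences between the genotypes, with 0 of 10 at an unadjusted p under 0.05 in limma, with or without the litter block. Of the contractile genes, Acta2, the actin of smooth muscle, which embryonic skeletal muscle and activated fibroblasts also make, had signals of 4697, 4099, 3786 and 4806 in controls and 3929, 4193, 4170.3 and 4568 in transgenics. The ranges overlapped almost wholly, and the log2 fold change was -0.04 (95% interval -0.22 to 0.14). Tagln, an actin-binding protein of the same cells, was at 0.02 and Smtn, smoothelin, at -0.12 (95% interval -0.37 to 0.12), lower in all 4 litters by at most 0.23. Myh11, the smooth muscle myosin heavy chain, had signals of 132, 170.2, 128 and 205 in controls and 171, 178, 165 and 125 in transgenics. It was higher in the transgenic array of litters 1, 2 and 3 and lower in litter 4, with a log2 fold change of 0.02 (95% interval -0.36 to 0.41). Cnn1, calponin, had a mean signal of 25.5, Lmod1, leiomodin, of 14.7, and Synpo2, an actin-bundling protein, of 104, all below the limit of 106 for the test.

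Of the pericyte genes, Rgs5, a regulator of G protein signalling, had signals of 1189, 1107, 869.8 and 994 in controls and 917, 1172, 887 and 1388 in transgenics. Its highest array was the transgenic one of litter 4, the other transgenic arrays lay among the controls, and its log2 fold change was 0.05 (95% interval -0.24 to 0.35). Its 3 other probe sets gave 0.0037, -0.15 and 0.24. Abcc9 and Kcnj8 encode the 2 kinds of subunit of a potassium channel of pericytes and were at 0.12 and 0.01. Abcc9 had its highest signal, 646, in the transgenic array of litter 4, where Rgs5 was also highest. Pdgfrb, the growth factor receptor that fibroblasts share, had signals of 1580, 2022, 1886 and 1826 in controls and 1685, 1781, 1753 and 1927 in transgenics. The transgenic arrays lay within the control range, at -0.03 on the log2 scale (95% interval -0.21 to 0.15). Cspg4, the NG2 proteoglycan, which chondrocytes make as well, had signals of 4061, 3962, 4026 and 3650 in controls and 4526, 4101, 4054 and 4086 in transgenics. In all 4 litters the transgenic array was the higher one, by 0.01 to 0.16, and the log2 fold change was 0.09 (95% interval -0.05 to 0.24), although its other probe set gave -0.04. Mcam, an adhesion molecule of mural and endothelial cells, was at 0.04.

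**Figure D3:**
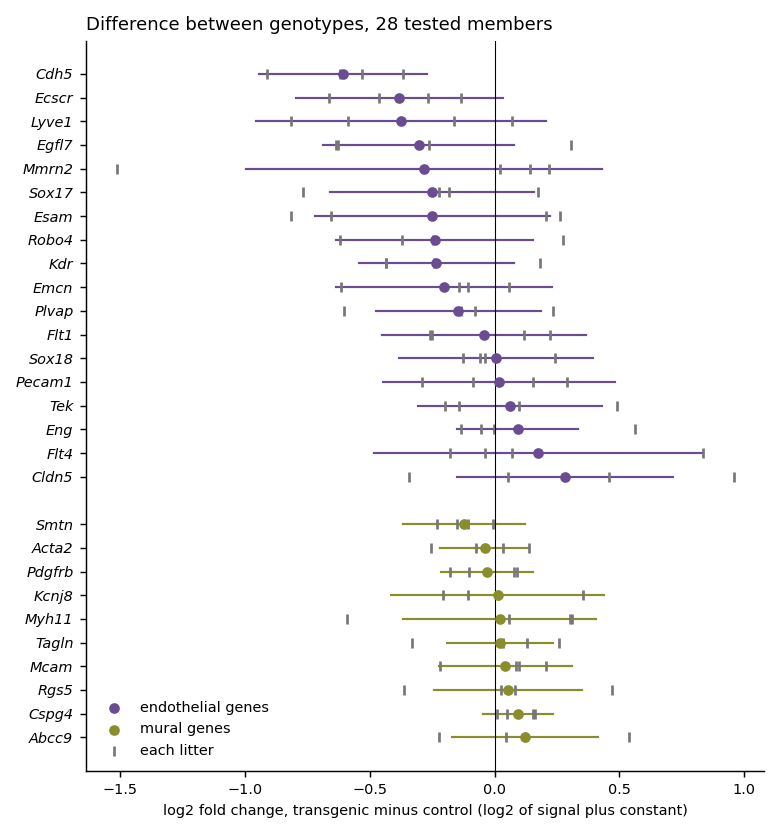
Log2 fold change (transgenic minus control, on log2 of signal plus constant) of the 28 tested vessel genes with its 95% interval, and the difference in each litter as grey ticks. The intervals are from the fit without the litter block. The interval of Cdh5, -0.94 to -0.27, is the only one that does not reach 0, and the mural genes cluster between -0.12 and 0.12. With the litter as a block, not drawn here, the interval of Ecscr was -0.71 to -0.05.

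Set side by side, more endothelial genes were lower than higher and more mural genes higher than lower. Of the 20 endothelial genes 12 were lower and 8 higher, with a median log2 fold change of -0.17 and a mean of -0.12. Of the 13 mural genes 4 were lower and 9 higher, with a median and a mean of 0.02. A second list of 23 further mural genes went the other way, with 14 lower and 9 higher and a median of -0.05. The contrast therefore holds for the 33 genes and not for mural genes at large. Over all tested probe sets the median was 0.00 and 48.8% were lower (39.6% with median scaling, which changed the sign of none of the 33). The mean difference of the endothelial genes was -0.28, -0.17, 0.04 and -0.06 in litters 1 to 4, and that of the mural genes -0.13, 0.06, -0.05 and 0.22. The endothelial mean was thus lower in 3 of 4 litters and the mural mean in 2. In litter 1, 14 of 20 endothelial genes were lower in the transgenic array against 49.5% of all tested probe sets, in litter 2 13 of 20 against 48.9%, in litter 3 10 of 20 against 50.9% and in litter 4 12 of 20 against 49.6%. Without the transgenic array of litter 1 the endothelial mean was -0.0066, without both arrays of litter 1 -0.063, and without control replicates 2 or 4 -0.068 and -0.074. It was -0.18 without transgenic replicate 4, and with Xist as a covariate it turned to 0.054. The same covariate moved the mural mean from 0.023 to 0.16, and the gap between the lists to -0.11. The gap between the endothelial and the mural mean was -0.14; it was -0.071 without transgenic replicate 1, between -0.095 and -0.091 without control replicates 2 or 4 or both arrays of litter 4, -0.22 without both arrays of litter 3, and -0.059 where each gene is the mean of its probe sets. The mural mean was 0.076 without both arrays of litter 1 and 0.064 without transgenic replicate 1. It turned to -0.043 without both arrays of litter 4, to -0.037 without transgenic replicate 4 and to -0.018 with the mean of all probe sets of a gene. In these bulk samples, fewer cells of a type and less RNA per cell cannot be told apart.

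Arrays of a genotype differed from each other by more than the genotypes did. Measured against each gene's mean over the 8 arrays, the endothelial genes stood on average at -0.11, 0.20, -0.05 and 0.19 on the log2 scale in the controls of litters 1 to 4. In the transgenics they stood at -0.39, 0.04, -0.01 and 0.13. The groups overlapped, litter 1 was low in both genotypes, and litter 4 was high in both. The transgenic array of litter 1 was the lowest of 8 for 10 of 20 endothelial genes and 4 of 13 mural genes, against 13.1% of all tested probe sets. The mural genes stood between -0.04 and 0.02 in controls and at -0.11, 0.06, -0.09 and 0.19 in transgenics, a narrower range. They were also brighter, with a median over genes of the mean signal of 472 against 196 for the endothelial genes. The part of brightness in the range was not tested. The summed endothelial signal lay between 4111 and 5170 in controls and between 3323 and 4794 in transgenics. The summed mural signal lay between 13690 and 14616 and between 13840 and 15319. Acta2 and Cspg4, which other cell types also make, weigh most in the mural sum, with mean signals of 4281 and 4058.

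**Figure D4:**
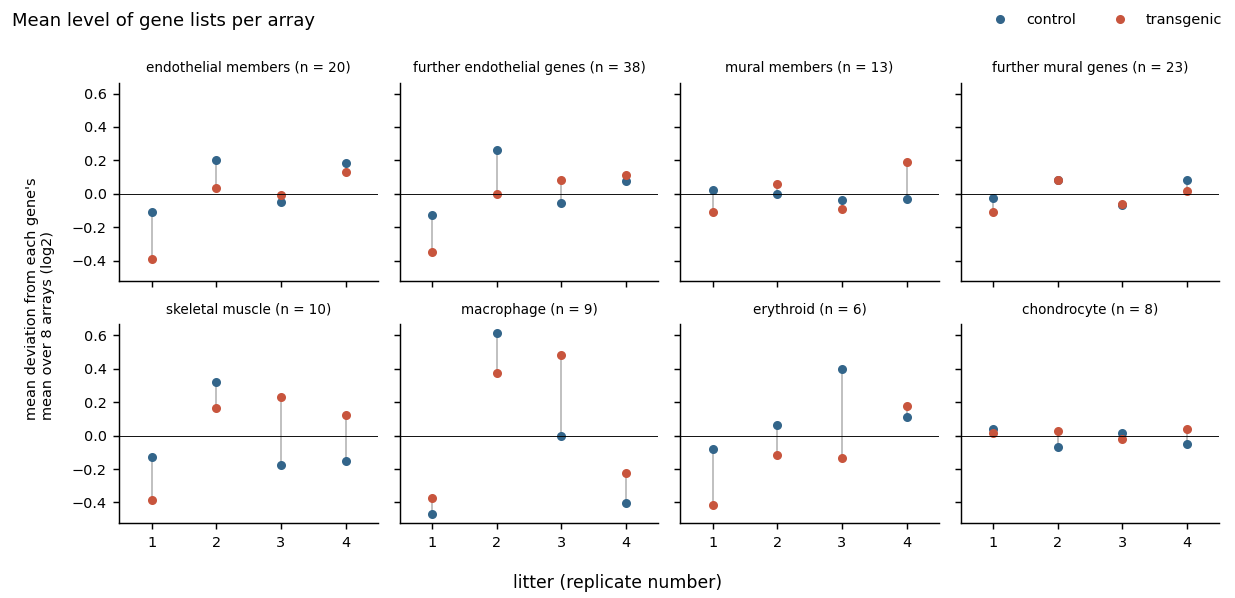
Mean deviation of 8 gene lists from each gene's mean over the 8 arrays (log2 scale), by litter, with control arrays in blue, transgenic arrays in red and lines joining a litter. The endothelial genes and the further endothelial genes share the low transgenic array of litter 1, at -0.39 and -0.35, and the high control array of litter 2, at 0.20 and 0.26, while mural genes cover a narrower range, -0.11 to 0.19, and chondrocyte genes stay within -0.07 to 0.04.

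A second set of endothelial genes, none of them among the 20, followed a partly similar course over the arrays. Between tested genes of the 2 sets the median correlation was 0.41. It was 0.21 without the transgenic array of litter 1 and 0.16 without both arrays of litter 1. The 38 genes of the second set, such as the adhesion molecules Cd34 and Icam2, the phosphatase Ptprb and the transcription factor Erg, stood at -0.13, 0.26, -0.06 and 0.08 in controls and at -0.35, -0.0033, 0.08 and 0.12 in transgenics. The transgenic array of litter 1 was the lowest of 8 for 19 of the 38. Between genotypes 25 were lower and 13 higher, with a median of -0.11 and a mean of -0.077. By litter, 25 and 34 of the 38 were lower in the transgenic arrays of litters 1 and 2, but 26 and 23 were higher in litters 3 and 4, with mean differences of -0.22, -0.27, 0.14 and 0.04. Without litter 1 the mean was -0.030. Of the 26 tested, 0 had an unadjusted p under 0.05 in limma, and with the litter block 1 did, against 5.54% of all: Tm4sf1, an endothelial surface protein (-0.20). The smallest p values belonged to Adgrl4, an adhesion receptor of endothelium (0.34, 95% interval -0.06 to 0.73), Ptprb (-0.32, 95% interval -0.73 to 0.09) and Podxl, a sialomucin (-0.43, 95% interval -1.04 to 0.19). Adgrl4 had signals of 74.0, 100.3, 89.8 and 115 in controls and 121, 140.5, 119 and 128 in transgenics, without overlap and opposite in direction to Cdh5. Groups that do not overlap, in either direction, were found for 2.27% of all tested probe sets.

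Other cell types of the digest also varied by litter. Skeletal muscle genes were lowest in the transgenic array of litter 1 (-0.39) and highest in the control array of litter 2 (0.32), the same arrays as for endothelium. Erythroid genes were also lowest in the transgenic array of litter 1 (-0.42). Between genotypes 5 of 6 erythroid genes were lower, with a median of -0.26, and their summed signal lay between 6550.4 and 13893 in controls and between 5448 and 10727 in transgenics. With the litter block the 3 tested erythroid genes, Alas2, Slc4a1 and Hbb-b2, all lower, had an unadjusted p under 0.05, against 5.54% of all tested probe sets, and limma adjusted p values of 0.70, 0.89 and 0.70. Without the block their unadjusted p values were 0.24, 0.20 and 0.31. Of 9 tested muscle genes 1 passed an unadjusted p of 0.05 with the block, Ckm, the muscle creatine kinase, and it was higher (0.37, blocked 95% interval 0.06 to 0.68, limma adjusted p 0.84). Muscle genes gave 4 lower of 10, with a summed signal of 22975 to 33623 in controls and 22139 to 30213 in transgenics. Macrophage genes stood at 0.61 and 0.38 in litter 2 and at -0.47 and -0.37 in litter 1 (controls first), and platelet genes gave 3 lower of 5. Perichondrial and fibroblast genes lay within -0.16 to 0.14 and chondrocyte genes within -0.07 to 0.04 on every array. The part of these cell types in the vessel gene differences was not tested.

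**Figure D5:**
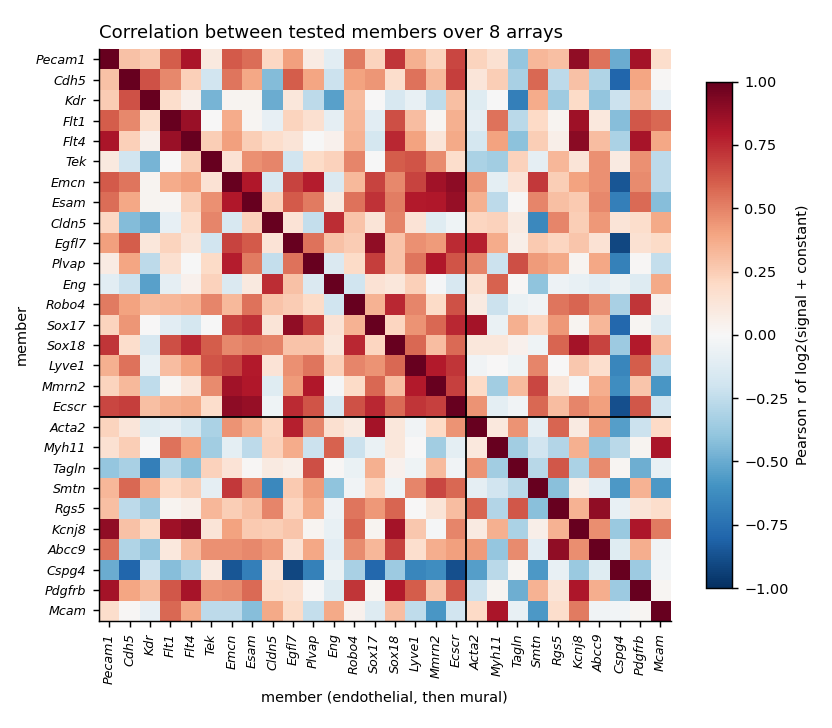
Pearson correlation over the 8 arrays between the 28 tested vessel genes, endothelial genes first and mural genes after the black line, on log2 of signal plus constant (red above 0, blue below). The endothelial block is mostly red, with a median of 0.31, and the mural block is mixed, with a median of 0.02.

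The endothelial genes varied together more than the mural genes, as a description of these 8 arrays, which share litters. Over the 153 pairs of tested endothelial genes the median correlation was 0.31, with 82.4% of pairs above 0. Over 45 mural pairs it was 0.02, with 51.1% above 0, and over 180 mixed pairs 0.16. All pairs of tested probe sets had a median of 0.0040. With the genotype means taken out the endothelial median was 0.35. Without the transgenic array of litter 1 it was 0.13 and without litter 1 0.12, with the mural median at 0.10 and 0.11, so the gap between the lists rested largely on that array. Ecscr, Emcn and Esam went most with the other endothelial genes, with median correlations of 0.64, 0.53 and 0.52, and Eng and Kdr least, with -0.01 and 0.02. Among the mural genes Abcc9 and Rgs5 reached 0.89. Across the lists, Kcnj8 reached 0.90 with Flt4 and 0.88 with Pecam1, and Cspg4 ran opposite to Egfl7 (-0.91) and Ecscr (-0.88). These single pairs were picked for their size.

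Genes for vessel growth signals and for its inhibitors were as often higher as lower, or nearly so. Of 23 genes of vessel growth signalling 12 were higher and 11 lower, with a median of 0.03. Vegfa, the growth factor that hypertrophic cartilage secretes to attract vessels, was at 0.03 (95% interval -0.25 to 0.31). Efnb2, the ephrin of arteries, was the 1 of 21 tested with an unadjusted p under 0.05 (0.040; limma adjusted p 0.9997), against 3.29% of all tested probe sets. Its signals were 779, 829, 750.02 and 804 in controls and 931, 878, 1271 and 819.9 in transgenics, overlapping but higher in every litter (log2 fold change 0.27, 95% interval 0.02 to 0.53). Sema3e, a repellent of vessel sprouts, was at 0.32 (95% interval -0.04 to 0.69) and Apln, a ligand made by sprouting tips, at -0.23 (95% interval -0.51 to 0.06). Of 10 listed inhibitors of vessel growth, not all of them specific to cartilage, 6 were higher and 4 lower, with a median of 0.02. Col4a3 and Spock3 among them, with mean signals of 37.9 and 49.2, were too dim for the test. The inhibitors include Cnmd, chondromodulin, at 0.02 (95% interval -0.10 to 0.14), Thbs1, a thrombospondin, at 0.04, and Timp3, a metalloproteinase inhibitor, at -0.24 (95% interval -0.54 to 0.06). Of 23 further mural genes 9 were higher and 14 lower, with a median of -0.05. Notch3, the Notch receptor of mural cells, was the 1 of 18 tested with an unadjusted p under 0.05, against 3.29% of all tested probe sets. It had signals of 894, 1018, 1056 and 956 in controls and 707, 946, 846 and 842 in transgenics, lower in every litter though the groups overlapped. Its log2 fold change was -0.23 (95% interval -0.44 to -0.01), at p 0.039 unadjusted and 0.9997 adjusted in limma. With the litter block Ndufa4l2, from the same list, also had an unadjusted p under 0.05 in limma (log2 fold change 0.19), against 5.54% of all. Which cells of the digest made it was not tested.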

How the data were processed

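RNA of 8 rib digests was hybridised to 1-colour Affymetrix arrays. Per the labels' protocols, dissected rib cages were taken apart with collagenase and trypsin (0.25% each, 1 h), then with fresh collagenase, and passed through a 70 micrometre strainer. The deposited values are linear probe set intensities from MAS5, a tool named in the submitters' processing notes, whose version and detection calls are not used here. Each array's mean without the top and bottom 2% is 500. Median signals lay between 100.5 and 115, and 4 arrays per group limit the precision.

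Of 45101 probe sets, 64 controls were left out. The log2 of signal plus 31.5 (the 25th percentile of signal, as a median over arrays) was fitted with limma 3.58.1 (lmFit, eBayes with trend, R 4.3.3) over the 22518 probe sets with a mean above the median, with Benjamini-Hochberg adjustment over all of them. Genes were named through GEO's platform annotation (34945 probe sets with 1 symbol, 932 with several, 9160 unnamed here). The members and the 13 lists were chosen with earlier results of these data known. All 33 members are named. Values in every array are given for the 10 with the smallest p and for Pecam1, Cdh5, Kdr, Tek, Acta2, Myh11, Rgs5 and Pdgfrb. From each further vessel list up to 3 genes with the smallest p are named, not all with values in every array. Beside them stand a few known genes chosen by name and those under an unadjusted p of 0.05 only with the litter block. Means over lists have no test. Samples of both genotypes with the same replicate number also share an animal number in the labels, and embryos came from 4 litters. On these labels arrays are paired by litter. The deviations of same-litter arrays from their group means correlated at 0.28, 0.17, 0.04 and 0.14 (litters 1 to 4). The mean between litters, -0.05, is no separate comparison. Deviations from a group mean cancel out within the group, which ties it to the same-litter values. The fit has no block, and the intervals given are from it unless named as blocked. Blocked p values stand beside the genes named here whose unadjusted p crosses 0.05 with the block, and blocked intervals of other genes are not given. Nothing says that samples are single animals, so p values measure the spread between pools. The fit was tested on simulated data. Alternatives were other constants, filters, scalings, probe set choices, the litter as a block, Xist as a covariate and arrays left out. Plots were made in Python 3.11.15 (matplotlib 3.10.9).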

Additional observations from a re-analysis of the deposited data

Results flagged for a closer look

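In 5 of 70 groups of 4 arrays, 1 array stood far from the other 3 of its genotype by Dixon's criterion, which chance meets in about 5% of groups. Tek was at 155 in the transgenic array of litter 1, below the other transgenic arrays. Robo4 was at 268 in the control array of litter 2, above the other controls. Tagln was at 1056 in the control array of litter 1, above the other controls. In the transgenic array of litter 1, Cspg4 was high at 4526 and Synpo2, a gene too dim for the test, low at 76.4. The last of these values and that of Tek come from the array in which most endothelial genes were low.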

How the results depend on the processing

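No vessel gene tested passed the adjusted threshold under the 24 alternatives that give an adjusted p, the smallest being 0.70 (Cdh5, with the litter as a fixed block). The other probe set choices were not tested, and the 5 dim genes were tested only with no filter. Cdh5 stayed below 0 in all 24 alternatives run on it, from -0.72 to -0.22 (the mean of both probe sets). The signs of the 33 genes did not change with added constants of 1, 16 or 64, no filter, a stricter filter (which left 7 of the genes tested), median scaling, quantile normalization, a fixed or random litter block, or no intensity trend. They changed for 2 genes with the mean of all probe sets and for 1 without probe sets ending _s_at or _x_at. The endothelial mean of -0.12 moved to 0.054 with Xist as a covariate, and with it 10 genes changed sign, of those tested Flt1 (to 0.11), Emcn (0.090), Plvap (0.021), Eng (-0.034), Robo4 (0.023), Mmrn2 (0.052), Acta2 (0.011), Myh11 (-0.096) and Pdgfrb (0.060); the cause was not tested. With the litter as a fixed block and without litter 1, chosen after seeing the data, the endothelial mean was -0.063. The count of probe sets with an unadjusted p under 0.05, 740, was 1838 with no filter and 305 with the stricter filter, where more or fewer were tested, and 1248 and 1268 with the replicate block (fixed and random), which changed no adjusted call of a vessel gene. The count past the adjusted threshold was 1 with Xist as a covariate and between 0 and 2 over the 12 settings that left out arrays (1 without transgenic replicate 4, 2 without both arrays of litter 4), none of them a vessel gene.

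Leaving out each array or litter in turn kept the sign of 13 genes and changed that of the other 20 in at least 1 setting. For the tested ones the ranges were -0.17 to 0.14 (Pecam1), -0.15 to 0.030 (Flt1), -0.16 to 0.33 (Flt4), -0.082 to 0.17 (Tek), -0.32 to 0.0015 (Emcn), -0.27 to 0.0079 (Plvap), -0.063 to 0.17 (Eng), -0.077 to 0.12 (Sox18), -0.50 to 0.13 (Mmrn2), -0.10 to 0.033 (Acta2), -0.077 to 0.22 (Myh11), -0.056 to 0.14 (Tagln), -0.085 to 0.19 (Rgs5), -0.15 to 0.11 (Kcnj8), -0.018 to 0.24 (Abcc9), -0.096 to 0.021 (Pdgfrb) and -0.024 to 0.13 (Mcam). Signal over background limits Tie1, Vwf, Cnn1, Lmod1 and Synpo2.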

Other observations

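Genes of macrophages, cells that often lie against vessels, varied more between arrays than the vessel genes, with a median SD of 0.61 over the 8 arrays on the log2 scale against 0.34 for the endothelial and 0.20 for the mural genes. The SD ran from 0.20 (Ptprc) to 0.95 (C1qa), and only 5 of the 9 genes were bright enough for the test. Their median mean signal was 168, against 196 and 472 for the endothelial and mural genes. The part of brightness in the SD was not tested. The genes named next were chosen after their values were seen. Mrc1, a scavenger receptor of tissue macrophages, had signals of 73.8, 488, 239 and 188 in the controls of litters 1 to 4 and 103, 479, 389 and 167 in the transgenics. C1qb, a complement chain made by macrophages, had signals of 121, 388, 192 and 110.2 in controls and 143, 338, 385 and 172 in transgenics. Both were high in both arrays of litter 2 and in the transgenic array of litter 3. Pf4, a chemokine known from platelets, had signals of 313, 855, 411 and 299 in controls and 269.5, 680.3, 730.2 and 313 in transgenics, high in the same arrays. Gp1bb, a platelet surface receptor chain, stayed between 241 and 337 with no such course. Not all listed macrophage genes had it either. Csf1r did, at 840 and 456 in litter 2 (control first) and 695 in the transgenic array of litter 3. Cd14 did not, with signals of 230, 273, 234 and 163 in controls and 294, 217, 244 and 276 in transgenics. Ptprc, too dim for the test, was highest in the transgenic array of litter 4.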
